A study of Mus musculus with 14 samples.

Results

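Corticosteroid signalling in the brain was followed through 8 genes: the receptors Nr3c1 and Nr3c2, the corticotropin-releasing hormone receptor Crhr1, the steroid-activating enzyme Hsd11b1, the receptor chaperones Fkbp4 and Ptges3, and the coactivators Ncoa1 and Ncoa2. They were chosen by symbol, through the Ensembl identifiers of the 2 deposited count tables, and are 8 of the 53465 genes listed there. Bulk RNA-seq was made from the anterior cingulate cortex, a frontal area involved in pain, fear and the sharing of emotion, of the inbred mouse strains AKR/J (AKR) and C57BL/6NJ (B6N). There were 3 AKR and 3 B6N libraries after observational fear conditioning (OFL), in which a mouse watches another receive shocks, and 4 AKR and 4 B6N libraries from naive mice. The title of the series names the transcription factor ARNT2 and somatostatin interneurons, but the 4 groups carry no engineered allele and no drug by their labels, and age, sex and the time between conditioning and dissection are not given there. Nothing says whether each library came from a separate animal or from pooled animals, so the p-values measure the spread between libraries, which may be technical.

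Corticosterone, the main glucocorticoid of mice, acts on neurons and glia through the mineralocorticoid receptor encoded by Nr3c2, which binds it tightly, and the glucocorticoid receptor encoded by Nr3c1, which binds it less tightly and is filled mainly under stress. Without hormone the receptors sit in the cytosol with Hsp90, the p23 co-chaperone encoded by Ptges3 and an immunophilin: FKBP52, encoded by Fkbp4, favours hormone binding and transport to the nucleus, and FKBP51, encoded by Fkbp5, opposes it. In the nucleus the bound receptors recruit p160 coactivators such as SRC-1 (Ncoa1) and SRC-2 (Ncoa2), while Hsd11b1 regenerates active corticosterone from its inert keto form inside cells and Crhr1 receives the peptide that starts the hormonal stress response and also acts locally in cortex.

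The libraries held 13487311 to 14396289 counted reads in OFL AKR, 14063573 to 14526253 in OFL B6N, 19073921 to 23782061 in naive AKR and 20583264 to 25780227 in naive B6N. The OFL and naive libraries were deposited as separate tables and differed in make-up beyond depth: the nuclear RNA Malat1 took 0.773% to 0.833% of reads in OFL libraries and 0.0895% to 0.107% in naive ones, and mitochondrial genes took 0.752% to 0.85% in OFL libraries and 1.56% to 1.9% in naive ones. Markers of excitatory neurons (Slc17a7, Camk2a, Neurod6, Tbr1) summed to 2016.1 to 2249.0 CPM (read counts scaled to a common library size) in OFL AKR, 1971.0 to 2233.8 in OFL B6N, 4369.1 to 4527.4 in naive AKR and 4412.6 to 4916.5 in naive B6N. Summed markers of inhibitory neurons, astrocytes and microglia were also lower in every OFL library than in every naive one. Erythroid markers (Alas2, Hbb-bs, Hba-a1) summed to 34.3 to 45.1 CPM in OFL AKR, 60.9 to 74.5 in OFL B6N, 18.6 to 32.5 in naive AKR and 34.7 to 42.7 in naive B6N, higher after OFL and lower in AKR. Excitatory and inhibitory neuron markers (the latter 549.7 to 923.6 CPM over all libraries) were both present, while choroid plexus markers summed to at most 5.58 CPM and hypothalamic ones to at most 1.64 CPM. None of these markers is particular to the anterior cingulate cortex, so the area named by the label was not checked. Striatal markers summed to 59.2 to 81.9 CPM over all libraries, and hippocampal ones (Prox1, Dsp, C1ql2) to 19.9 to 21.8 CPM in OFL AKR, 15.2 to 18.4 in OFL B6N, 20.7 to 22.6 in naive AKR and 15.5 to 22.7 in naive B6N, with 2 of the 3 called higher in AKR in each condition. Condition and library set therefore cannot be told apart, and within bulk tissue neither can fewer cells of a type and less RNA per cell. The comparisons between strains were fitted within each library set. AKR reads were aligned to a reference made from C57BL/6, and whether this lowers AKR counts of any gene here was not tested.

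All 8 genes passed the filter on low counts in every comparison, with between 111 and 4099 reads per library. Levels between genes are compared here as CPM per kilobase of exonic sequence. Per kilobase, Ptges3 was the highest of the 8 in OFL AKR (46.8 ± 2.52, SD, n = 3) and OFL B6N (47.5 ± 2.44, n = 3) and the second in naive AKR (33.2 ± 0.53, n = 4) and naive B6N (38.5 ± 1.79, n = 4), where Fkbp4 was the highest with 40.6 ± 2.82 in naive AKR and 44.4 ± 2.78 in naive B6N. Hsd11b1 was the lowest in every group, with 1.96 ± 0.116 in OFL AKR, 2.45 ± 0.126 in OFL B6N, 2.61 ± 0.305 in naive AKR and 3.55 ± 0.694 in naive B6N. Nr3c2 was the second lowest in every group. In between, Fkbp4, Nr3c1 and Ncoa1 followed each other in OFL AKR with overlapping libraries, as did Nr3c1 and Fkbp4, and Crhr1 and Ncoa2, in OFL B6N and Ncoa1 and Crhr1 in naive B6N. The other neighbours in each order had separate ranges.

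**Figure D1:**
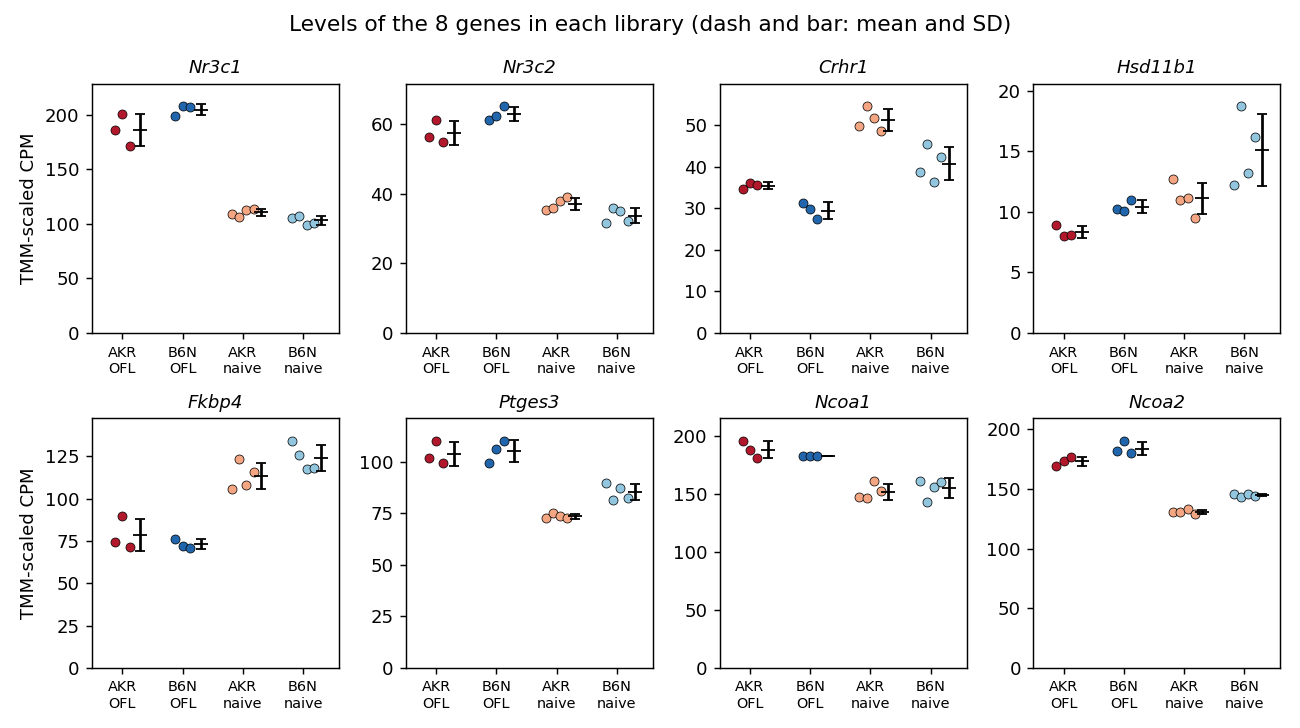
Level of each gene in each of the 14 libraries, in TMM-scaled CPM, by group (OFL AKR, OFL B6N, naive AKR, naive B6N), with the mean and SD as bars. Nr3c1 and Nr3c2 sit higher in the OFL libraries of both strains, Fkbp4, Crhr1 and Hsd11b1 lower, and Crhr1 is higher in AKR than in B6N within each condition.

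Among the 8 genes, the receptors had the largest log2 differences between OFL and naive libraries within each strain. This order holds before gene length is considered. Set beside genes of like exonic length, as described below, Ptges3 exceeded the median by 0.97 in AKR, Nr3c2 by 0.72 and Nr3c1 by 0.42. In B6N the order was Nr3c2 (0.99), Ptges3 (0.76) and Nr3c1 (0.70). Nr3c1 (ENSMUSG00000024431; GRCm38 chromosome 18, 39410545 to 39519421, minus strand; 7684 exonic bases) had 186.4, 200.3 and 171.6 CPM in the OFL AKR libraries and 109.5, 106.5, 113.2 and 113.5 CPM in the naive AKR ones. Every OFL AKR library was above every naive AKR one. The difference was 0.75 on the log2 scale, OFL minus naive (SE 0.0463), or 1.68-fold (edgeR quasi-likelihood test, adjusted p = 4.3e-14).

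In B6N, Nr3c1 had 199.0, 207.8 and 207.3 CPM in OFL libraries and 105.4, 107.6, 98.9 and 101.0 CPM in naive ones. Again the ranges were far apart, and the log2 difference was 0.99 (SE 0.046), or 1.98-fold (edgeR adjusted p = 1e-16).

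Nr3c2 (ENSMUSG00000031618; chromosome 8, 76899442 to 77245012, plus strand; 6474 exonic bases) had 56.1, 61.1 and 54.7 CPM in OFL AKR and 35.4, 35.8, 37.8 and 39.1 CPM in naive AKR. In B6N it had 61.2, 62.1 and 65.0 CPM in OFL libraries and 31.6, 35.9, 35.0 and 32.0 CPM in naive ones. The OFL libraries were above the naive ones in both strains without overlap. On the log2 scale they differed by 0.63 in AKR (SE 0.0567, edgeR adjusted p = 1.1e-10) and 0.90 in B6N (SE 0.0562, edgeR adjusted p = 4.8e-14). Of its exonic bases, 247 (3.82%) lie under exons of genes on the other strand, mainly Gm10649, which had 17 to 37 reads in any library, and whether counting used strand is not known.

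The promoter of Nr3c2 is shown with that of Fkbp4, the gene of the set that differed most in the opposite direction in B6N, because both hold the same short element. Both are the 250 bases before the gene's start in RefSeq (GRCm38.p6), read along the gene's strand, Nr3c2 at chr8:76902080-76902329 (plus strand) and Fkbp4 at chr6:128438657-128438906 (minus strand). Capitals mark GAANNTTC, a facing pair of the units that heat shock factors bind, which begins 151 bases before the start in each. The Nr3c2 window lies inside the span that the annotation above gives the gene, since RefSeq and GENCODE place its start differently.
Nr3c2: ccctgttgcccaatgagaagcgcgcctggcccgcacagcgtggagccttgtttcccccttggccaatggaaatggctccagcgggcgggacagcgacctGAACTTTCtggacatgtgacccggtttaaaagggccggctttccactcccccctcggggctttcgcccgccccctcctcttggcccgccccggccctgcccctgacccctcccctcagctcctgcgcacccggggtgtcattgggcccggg
Fkbp4: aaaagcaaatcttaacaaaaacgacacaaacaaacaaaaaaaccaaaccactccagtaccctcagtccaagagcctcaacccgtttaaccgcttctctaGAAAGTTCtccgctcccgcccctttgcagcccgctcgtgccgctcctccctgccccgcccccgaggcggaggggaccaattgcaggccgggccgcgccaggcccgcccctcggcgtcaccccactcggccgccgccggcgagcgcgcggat
RefSeq promoters were at hand for 6 of the 8 genes, and both strands were searched in each. GAANNTTC was found in 6.69% of 32851 mouse promoters of this length, and among the 6 in these windows of Nr3c2 and Fkbp4. The short receptor element AGAACA (in 16.1% of the 32851), and the full glucocorticoid response element made of AGAACA, 3 free bases and the reverse complement of AGAACA (in 0.00913%), had no match in any of the 6 windows, nor in that of Fkbp5. The GC box GGGCGG, found in 32.7% of the 32851, had 3 matches each in the windows of Nr3c2, Fkbp4 and Ptges3, 7 in that of Ncoa1, 1 in that of Crhr1 and 0 in that of Hsd11b1. The windows of Hsd11b1 and Fkbp5, like that of Nr3c2, lie inside the spans annotated for the genes, and those of Fkbp4 and Ptges3 run a short way into them. Sequence outside the windows was not searched. A match is only a match of letters in this window, and no binding was measured.

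The 2 strains were close in receptor level, with the mean of AKR slightly above that of B6N in naive libraries and slightly below it in OFL ones. In naive mice Nr3c1 averaged 110.7 ± 3.29 CPM in AKR and 103.2 ± 4.01 in B6N (SD, n = 4 each), a log2 difference of 0.10, AKR minus B6N (SE 0.0374, edgeR adjusted p = 0.0423), while Nr3c2 averaged 37.0 ± 1.75 CPM in AKR and 33.6 ± 2.13 in B6N, which gives 0.14 for the difference (SE 0.0528, edgeR adjusted p = 0.0431). The libraries of the 2 strains overlapped for both genes. Both calls turned on single libraries. For Nr3c1 the adjusted p was 0.0529 to 0.136 without naive AKR library 1, 3 or 4 or naive B6N library 1, 3 or 4, and for Nr3c2 it was 0.0895 to 0.146 without naive AKR library 3 or 4 or naive B6N library 1 or 4. Neither passed with DESeq2, which gave adjusted p-values of 0.0615 for Nr3c1 and 0.0723 for Nr3c2.

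After OFL the order was the other way round: Nr3c1 averaged 186.1 ± 14.4 CPM in AKR and 204.7 ± 4.95 in B6N (SD, n = 3 each), a log2 difference of -0.15 (95% interval -0.26 to -0.03, edgeR adjusted p = 0.0688). Nr3c2 averaged 57.3 ± 3.35 CPM in AKR and 62.8 ± 2.02 in B6N, and the difference was -0.14 (interval -0.27 to -0.01, edgeR adjusted p = 0.129). Neither passed the test. Every AKR library was below every B6N library for Nr3c2, with 61.1 CPM as the highest of AKR and 61.2 as the lowest of B6N, and for Nr3c1 the AKR library at 200.3 CPM was above the B6N one at 199.0. Without that AKR library, replicate 2, the Nr3c1 difference was -0.20 (edgeR adjusted p = 0.0118), and without B6N OFL library 1 it was -0.17 (adjusted p = 0.0302).

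The difference between the strains' OFL minus naive differences was itself tested in one model of the 14 libraries, which are the same libraries as in the comparisons above. It was -0.24 for Nr3c1 (SE 0.0656, edgeR adjusted p = 0.0319) and -0.27 for Nr3c2 (SE 0.08, adjusted p = 0.0448), the OFL libraries of AKR being less far above their naive ones than those of B6N. These were 2 of the 8 genes called, both lower, where 5.15% of all 20291 genes tested were called and 1.54% were called lower. Most single libraries decide these calls. For Nr3c1 the adjusted p was 0.0593 to 0.122 without naive AKR 3 or 4, naive B6N 3 or 4, OFL AKR 1 or 3 or OFL B6N 2 or 3, while the difference stayed between -0.29 and -0.18 over all 14 omissions. For Nr3c2 it was 0.0791 to 0.125 without naive AKR 3 or 4, naive B6N 1 or 4, OFL AKR 1 or 3 or OFL B6N 2 or 3, with the difference between -0.32 and -0.24.

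**Figure D2:**
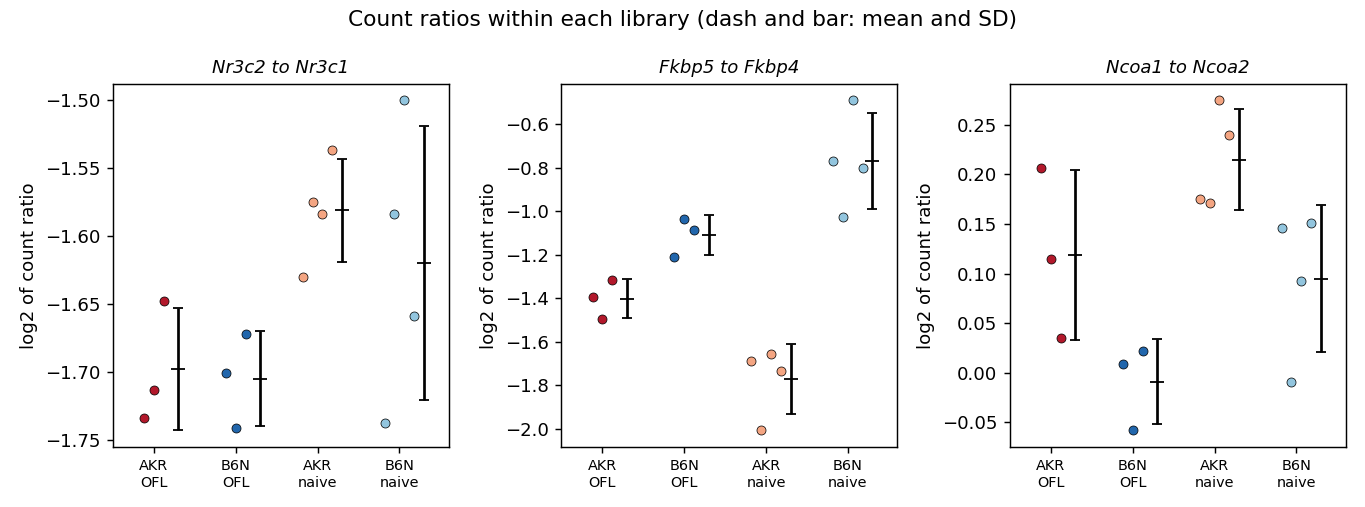
Log2 of the count ratio of 2 genes within each library, which needs no scaling between libraries, for Nr3c2 to Nr3c1, Fkbp5 to Fkbp4 and Ncoa1 to Ncoa2, by group. The receptor ratio differs by little over the 14 libraries, and the Fkbp5 to Fkbp4 ratio is lowest in naive AKR and highest in naive B6N.

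The receptors kept nearly the same proportion to each other. The log2 ratio of Nr3c2 to Nr3c1 reads averaged -1.70 ± 0.045 in OFL AKR, -1.71 ± 0.035 in OFL B6N (SD, n = 3 each), -1.58 ± 0.038 in naive AKR and -1.62 ± 0.101 in naive B6N (n = 4 each), so that in single libraries there were between 0.299 and 0.353 Nr3c2 reads per Nr3c1 read. The strains overlapped in both conditions. All AKR OFL libraries, at -1.648 at most, were below all naive AKR ones, at -1.63 at least, while in B6N the OFL and naive ratios overlapped. These ratios are given as a description, with no test.

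Genes most like a receptor in pattern were sought over the 14 libraries, by the root mean square difference in log2 level after centring each gene on its own mean, among 11616 protein-coding genes. For Nr3c1 they were Ttll7 (0.0452), Eea1 (0.0571) and Npat (0.0652), and Nr3c2 came 19th (0.0757). For Nr3c2 they were Npat (0.0627), Chm (0.0648) and Hnrnpr (0.068), and Nr3c1 came 8th. Centred on their means, the 3 neighbours of Nr3c1 lay at 0.41 to 0.47 in OFL AKR, 0.50 to 0.54 in OFL B6N, -0.36 to -0.28 in naive AKR and -0.40 to -0.39 in naive B6N, against 0.43 in OFL AKR, 0.57 in OFL B6N, -0.32 in naive AKR and -0.42 in naive B6N for Nr3c1 itself. The likeness rests mainly on the step between the 2 library sets, which these genes share.

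Crhr1 was the gene of the set that differed most clearly and in the same direction between the strains in both conditions. It encodes the receptor through which corticotropin-releasing hormone drives pituitary output and, in cortex, modulates local neurons (ENSMUSG00000018634; chromosome 11, 104132855 to 104175523, plus strand; 2460 exonic bases). In naive mice it had 49.7, 54.5, 51.7 and 48.5 CPM in AKR and 38.8, 45.5, 36.3 and 42.2 CPM in B6N. No AKR library reached down to the B6N range, and the log2 difference was 0.33 (SE 0.0597), 1.26-fold higher in AKR (edgeR adjusted p = 0.00031). Of all 17645 genes tested between naive strains, 37.8% were called and 34.7% had libraries that did not overlap. Of the 8 genes, 6 were called, 3 higher (background 18.3%) and 3 lower (19.5%) in AKR, and 3 had libraries apart. Their median log2 difference was -0.08, against 0.01 for all genes.

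After OFL Crhr1 had 34.6, 36.1 and 35.5 CPM in AKR and 31.3, 29.7 and 27.3 CPM in B6N. The libraries were again apart, and the log2 difference was 0.26 (SE 0.0686), 1.20-fold higher in AKR (edgeR adjusted p = 0.0128). Without OFL B6N library 2 or 3 the adjusted p was 0.0565 and 0.0626. In this comparison 16.4% of 17994 genes were called and 31.2% had libraries apart. Of the 8 genes, 2 were called, Crhr1 higher (background 7.5%) and Hsd11b1 lower (8.86%), and 4 had libraries apart. The median of the 8 was -0.06, against 0.00 for all genes. Summed excitatory neuron markers overlapped between the strains in both conditions, and inhibitory ones were 594.6 to 635.1 CPM in OFL AKR, 549.7 to 568.5 in OFL B6N, 843.5 to 923.6 in naive AKR and 807.8 to 878.5 in naive B6N. After OFL inhibitory markers were higher in every AKR library than in every B6N one. So were those of microglia (185.7 to 192.5 CPM in AKR, 180.5 to 181.9 in B6N) and endothelium (207.6 to 214.8, 182.0 to 190.0). Mural and meningeal markers were too (160.5 to 164.7 in AKR, 136.0 to 142.2 in B6N). Astrocyte and oligodendrocyte markers overlapped. In naive libraries endothelial markers were also apart (221.5 to 251.7 in AKR, 210.5 to 221.2 in B6N). The part of these markers in the Crhr1 difference was not tested. The difference between the strain differences of Crhr1 in the 2 conditions was -0.06 (95% interval -0.26 to 0.14, edgeR adjusted p = 0.821).

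OFL libraries held less Crhr1 than naive ones in both strains, with no overlap. The log2 difference was -0.53 in AKR (SE 0.0674, edgeR adjusted p = 7e-08) and -0.47 in B6N (SE 0.0697, edgeR adjusted p = 9.5e-07), 0.693-fold in AKR and 0.723-fold in B6N. Excitatory neuron markers were lower in the same libraries, as given above, and their part in this difference was not tested.

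**Figure D3:**
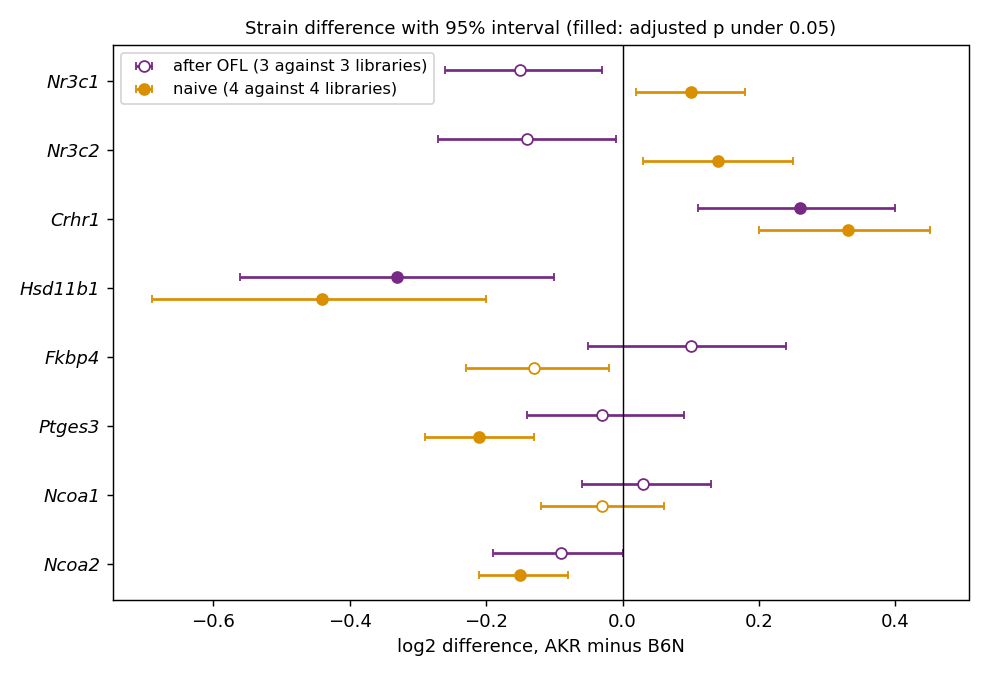
Log2 difference between strains, AKR minus B6N, for each of the 8 genes, with 95% intervals, in OFL and in naive mice, with filled points where the adjusted p was under 0.05. Crhr1 is above 0 and Hsd11b1 below 0 in both conditions, and Nr3c1 and Nr3c2 are on opposite sides of 0 in the 2 conditions.

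The rest of the system of corticotropin-releasing hormone and related peptides was sparse in this tissue. Of 12 listed genes, 5 passed the count filter in naive mice, where 1 was higher and 3 were lower in AKR, with a median log2 difference of -0.41 (18.3% of all genes tested were called higher and 19.5% lower). Crh, the peptide itself, averaged 5.05 CPM in naive AKR and 6.69 CPM in naive B6N (log2 difference -0.41, SE 0.0889, edgeR adjusted p = 0.00156), so that ligand and receptor differed in opposite directions. Crhbp, whose protein binds and holds back the peptide, averaged 28.9 CPM in naive AKR and 22.3 in naive B6N (0.38, SE 0.0537, edgeR adjusted p = 2.8e-05). Crhr2, the second receptor of the family, had 11 to 18 reads in naive AKR libraries and 23 to 33 in naive B6N ones (-0.79, SE 0.21, edgeR adjusted p = 0.00652), and Oxtr, the oxytocin receptor, averaged 7.53 CPM in naive AKR and 10.1 in naive B6N (-0.42, SE 0.089, edgeR adjusted p = 0.00122).

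After OFL 3 of the 12 genes were tested and 1 was called, higher (background 7.5%): Crhbp averaged 17.8 CPM in AKR and 12.1 in B6N (log2 difference 0.54, SE 0.109, edgeR adjusted p = 0.00147). Against naive libraries, all 5 genes tested were lower in OFL AKR (median -0.70) and 4 of 5 in OFL B6N (median -0.88), where 38.8% of all genes were called lower in AKR and 38.4% in B6N. Crhr2 (4 to 7 reads per OFL library) and Pomc (5 to 11) passed the count filter only through the naive libraries. Their lower level in OFL libraries was thereby set in advance and adds nothing to these counts. Crh fell to 3.45 CPM in OFL AKR, against 5.05 in naive AKR (-0.54, SE 0.131, edgeR adjusted p = 0.00053), and to 3.81 CPM in OFL B6N, against 6.69 in naive B6N (-0.81, SE 0.122, edgeR adjusted p = 1.1e-06). None of the 5 was called in the difference between the strains' changes, where Crhbp had the smallest p (0.18, SE 0.116, edgeR adjusted p = 0.477). Ucn3, a peptide that prefers Crhr2, had 0 reads in all 14 libraries.

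Hsd11b1 (ENSMUSG00000016194; chromosome 1, 193221634 to 193264075, minus strand; 4251 exonic bases) was lower in AKR. In naive mice it had 12.7, 11.0, 11.1 and 9.52 CPM in AKR and 12.2, 18.7, 13.2 and 16.2 CPM in B6N, and one AKR library lay inside the B6N range. The log2 difference was -0.44 (SE 0.117), 0.735-fold (edgeR adjusted p = 0.00607), and it stayed under the threshold when any single naive library was left out (adjusted p at most 0.023).

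After OFL it had 8.9, 8.01 and 8.08 CPM in AKR, from 111 to 120 reads, and 10.2, 10.1 and 11.0 CPM in B6N, from 144 to 156 reads. These libraries were apart, and the log2 difference was -0.33 (SE 0.11, edgeR adjusted p = 0.0453). The call rests on nearly every library: without OFL AKR library 1, 2 or 3, or OFL B6N library 2 or 3, the adjusted p was 0.0618 to 0.152, and DESeq2 gave 0.177. Against naive libraries Hsd11b1 was lower, with a log2 difference of -0.41 in OFL AKR (SE 0.134, edgeR adjusted p = 0.00737) and -0.53 in OFL B6N (SE 0.122, edgeR adjusted p = 0.00032). When only protein-coding genes with no exon overlap on the other strand set the scale, the AKR difference was -0.23 (edgeR adjusted p = 0.128).

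Hsd11b2, which inactivates corticosterone and protects Nr3c2 from it in kidney, had 0 reads in each OFL AKR library, 0 to 1 in OFL B6N, 2 to 4 in naive AKR and 3 to 10 in naive B6N. Among 11 listed genes of corticosteroid synthesis, breakdown and export, 7 were tested. In naive mice none was higher and 3 were lower in AKR, and after OFL none was higher and 2 were lower. Of all genes, 18.3% were called higher and 19.5% lower in naive AKR, and 7.5% higher and 8.86% lower in AKR after OFL. Abcb1b, an efflux pump of the family that keeps glucocorticoids out of the brain, had the largest difference. It averaged 0.674 CPM in OFL AKR and 4.49 in OFL B6N (log2 difference -2.73, SE 0.253, edgeR adjusted p = 1.5e-07). In naive mice it averaged 0.472 CPM in AKR and 3.32 in B6N (-2.79, SE 0.216, edgeR adjusted p = 1.9e-08). The AKR values rest on 9 to 10 reads per OFL library and 8 to 15 per naive one. Abcb1a, of the same family, averaged 48.6 CPM in OFL AKR, 48.5 in OFL B6N, 42.2 in naive AKR and 44.4 in naive B6N. Abcb1a was not called between the strains in either condition. Srd5a1, the 5-alpha reductase that begins the breakdown of several steroids, was lower in AKR, with a log2 difference of -1.26 after OFL (SE 0.178, edgeR adjusted p = 3.5e-05) and -1.06 in naive mice (SE 0.118, edgeR adjusted p = 1.8e-06). Cyp11a1, which makes pregnenolone from cholesterol, was lower in naive AKR, with a log2 difference of -0.56 (SE 0.118, edgeR adjusted p = 0.00119).

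Between OFL and naive libraries, 2 of these 7 genes were higher and 3 lower in AKR, and 2 were higher and 4 lower in B6N, where 39.8% of all genes were called higher and 38.8% lower in AKR, and 40.0% higher and 38.4% lower in B6N. Star, which carries cholesterol to the first enzyme of steroid synthesis, averaged 3.21 CPM in OFL AKR and 8.88 in naive AKR (log2 difference -1.47, SE 0.133, edgeR adjusted p = 1.3e-10), and 3.6 CPM in OFL B6N and 9.88 in naive B6N (-1.45, SE 0.126, edgeR adjusted p = 5e-11). H6pd, which supplies the cofactor that drives Hsd11b1 toward active steroid, went the other way from it, with 16.2 CPM in OFL AKR and 11.3 in naive AKR (0.51, SE 0.0959, edgeR adjusted p = 2.7e-05), and 14.7 CPM in OFL B6N and 11.1 in naive B6N (0.40, SE 0.0966, edgeR adjusted p = 0.00047). None of the 7 was called in the difference between the strains' changes.

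The 2 receptor chaperones moved in opposite directions between OFL and naive libraries. Fkbp4 (ENSMUSG00000030357; chromosome 6, 128429735 to 128438677, minus strand; 2795 exonic bases) had 74.6, 89.6 and 71.6 CPM in OFL AKR and 106.0, 123.2, 108.2 and 116.0 CPM in naive AKR. In B6N it had 76.4, 72.2 and 70.8 CPM in OFL libraries and 134.1, 126.0, 117.6 and 118.1 CPM in naive ones. OFL libraries were below naive ones throughout. On the log2 scale Fkbp4 differed by -0.53 in AKR (SE 0.0651, edgeR adjusted p = 3.9e-08) and -0.76 in B6N (SE 0.0652, edgeR adjusted p = 3.7e-11).

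Fkbp4 gave no call between strains. Its log2 difference was -0.13 in naive mice (95% interval -0.23 to -0.02, edgeR adjusted p = 0.0532), with overlapping libraries. It was called there without naive AKR library 2 (adjusted p = 0.0127), naive B6N library 3 (0.0421) or naive B6N library 4 (0.0409). After OFL it was 0.10 (interval -0.05 to 0.24, edgeR adjusted p = 0.408), and -0.01 without OFL AKR library 2, which was the highest. The difference between the strains' changes was 0.23 (interval 0.05 to 0.42, edgeR adjusted p = 0.163).

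Ptges3 (ENSMUSG00000071072; chromosome 10, 128058954 to 128077272, plus strand; 2217 exonic bases) had 101.8, 110.2 and 99.6 CPM in OFL AKR and 72.8, 75.4, 73.8 and 72.9 CPM in naive AKR. In B6N it had 99.4, 106.2 and 110.1 CPM in OFL libraries and 89.9, 81.5, 87.2 and 82.5 CPM in naive ones. OFL libraries were above naive ones in both strains, by 0.49 on the log2 scale in AKR (SE 0.0477, edgeR adjusted p = 4.2e-10) and 0.30 in B6N (SE 0.0471, edgeR adjusted p = 1.9e-06). In naive mice AKR was below B6N without overlap (-0.21, SE 0.0395, 0.865-fold, edgeR adjusted p = 0.00043). After OFL the strains overlapped (-0.03, 95% interval -0.14 to 0.09, edgeR adjusted p = 0.812). The test of the change itself gave 0.19 (interval 0.05 to 0.33, edgeR adjusted p = 0.104). Ptges3 counts are uncertain, since 20.9% of the 31-base words of its transcripts also occur in other genes, most of them in the processed copy Ptges3-ps, which had 1 to 12 reads in any library.

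Fkbp5, which opposes Fkbp4 on the receptor and is itself a classical target of the glucocorticoid receptor, behaved unlike either. It had 28.4, 31.8 and 28.7 CPM in OFL AKR, 33.1, 35.3 and 33.3 CPM in OFL B6N, 32.9, 30.6, 34.3 and 34.9 CPM in naive AKR and 78.8, 61.9, 83.8 and 67.9 CPM in naive B6N. The naive B6N libraries stood above all others. The strain difference was -1.14 in naive mice (SE 0.0779, edgeR adjusted p = 3.8e-09) and -0.20 after OFL (SE 0.0696, edgeR adjusted p = 0.056), and the difference between the strains' OFL minus naive differences was 0.95 (SE 0.118, edgeR adjusted p = 9.7e-06). The log2 ratio of Fkbp5 to Fkbp4 reads averaged -1.40 ± 0.09 in OFL AKR, -1.11 ± 0.09 in OFL B6N (SD, n = 3 each), -1.77 ± 0.16 in naive AKR and -0.77 ± 0.221 in naive B6N (n = 4 each). In reads, there were 0.355 to 0.401 Fkbp5 reads per Fkbp4 read in OFL AKR, 0.433 to 0.489 in OFL B6N, 0.249 to 0.317 in naive AKR and 0.491 to 0.713 in naive B6N.

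Among 17 other chaperones and co-chaperones of the receptors, Fkbp5 included, none was higher and 11 were lower in naive AKR than in naive B6N, with a median log2 difference of -0.11, against 18.3% of all genes called higher and 19.5% lower. Hspa8, the constitutive Hsp70 that hands receptors to Hsp90, averaged 681.5 CPM in naive AKR and 1158.7 in naive B6N (-0.76, SE 0.041, edgeR adjusted p = 1.4e-10). Stip1, the adaptor between Hsp70 and Hsp90, differed by -0.31 (SE 0.0459, edgeR adjusted p = 3.6e-05) and the Hsp40 Dnajb1 by -0.45 (SE 0.0754, edgeR adjusted p = 0.00013). After OFL 2 were higher (background 7.5%) and 1 was lower (8.86%) in AKR. Hspa8 was again lower (736.7 CPM in AKR and 1163.3 in B6N, -0.67, SE 0.047, edgeR adjusted p = 3.1e-09). Hsp90ab1, an Hsp90 itself, was higher (738.9 CPM in AKR and 659.3 in B6N, 0.16, SE 0.0379, edgeR adjusted p = 0.0068). Hsp90aa1, the other Hsp90 of the list, averaged 789.7 CPM in AKR and 857.4 in B6N after OFL and was not called.

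Against naive libraries, 5 of the 17 were higher and 8 lower in OFL AKR (median -0.17), and 2 were higher and 11 lower in OFL B6N (median -0.24). The shares over all genes were 39.8% higher and 38.8% lower in AKR, close to the AKR counts, and 40.0% higher and 38.4% lower in B6N. Cdc37, which brings kinases to Hsp90, averaged 52.8 CPM in OFL AKR and 129.1 in naive AKR (-1.29, SE 0.0499, edgeR adjusted p = 1.8e-18), and 50.6 CPM in OFL B6N and 123.0 in naive B6N (-1.28, SE 0.05, edgeR adjusted p = 2.2e-18). Hsp90ab1 was lower, with a log2 difference of -0.69 in OFL AKR (SE 0.0397, edgeR adjusted p = 9.5e-15) and -0.94 in OFL B6N (SE 0.04, edgeR adjusted p = 1.6e-17). Hsp90aa1 was not lower, averaging 789.7 CPM in OFL AKR, 741.1 in naive AKR, 857.4 in OFL B6N and 799.2 in naive B6N. The strains' changes differed for 3 of the 17, all with a higher value in AKR (background 3.61%): Fkbp5, Hsp90ab1 (0.24, SE 0.0554, edgeR adjusted p = 0.00786) and Stip1 (0.27, SE 0.0697, edgeR adjusted p = 0.0194).

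The coactivators Ncoa1 and Ncoa2 were higher in OFL libraries, and Ncoa2 was lower in naive AKR than in naive B6N. Ncoa1 (ENSMUSG00000020647; chromosome 12, 4247362 to 4477182, minus strand; 8576 exonic bases) had 195.7, 188.1 and 181.3 CPM in OFL AKR and 147.2, 146.8, 161.6 and 152.6 CPM in naive AKR. In B6N it had 182.9, 182.7 and 182.8 CPM in OFL libraries and 161.2, 142.9, 155.8 and 160.3 CPM in naive ones. OFL libraries lay above naive ones in both strains. Ncoa1 differed by 0.31 on the log2 scale in AKR (SE 0.045, edgeR adjusted p = 6.6e-07) and 0.24 in B6N (SE 0.0449, edgeR adjusted p = 3.1e-05).

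Between strains Ncoa1 libraries overlapped in both conditions. Its log2 difference was 0.03 after OFL (95% interval -0.06 to 0.13, edgeR adjusted p = 0.684) and -0.03 in naive mice (interval -0.12 to 0.06, edgeR adjusted p = 0.654).

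Ncoa2 (ENSMUSG00000005886; chromosome 1, 13139105 to 13374083, minus strand; 15642 exonic bases, the longest of the 8) had 130.4, 130.4, 133.6 and 129.2 CPM in naive AKR and 145.7, 143.7, 146.0 and 144.4 CPM in naive B6N. The 2 strains were apart with little spread within either. The log2 difference was -0.15 (SE 0.031), 0.903-fold (edgeR adjusted p = 0.00119), and the adjusted p was at most 0.00695 when any single library was left out. After OFL Ncoa2 had 169.6, 173.6 and 177.0 CPM in AKR and 181.7, 190.3 and 180.1 CPM in B6N. These libraries were apart too, but the difference of -0.09 did not pass the test (interval -0.19 to 0.00, edgeR adjusted p = 0.171). Ncoa2 was higher in OFL than in naive libraries by 0.41 in AKR (SE 0.0367, edgeR adjusted p = 1.1e-10) and 0.34 in B6N (SE 0.0363, edgeR adjusted p = 2.3e-09). The log2 ratio of Ncoa1 to Ncoa2 reads averaged 0.12 ± 0.086 in OFL AKR, -0.01 ± 0.043 in OFL B6N (SD, n = 3 each), 0.22 ± 0.051 in naive AKR and 0.10 ± 0.074 in naive B6N (n = 4 each), and was higher in every AKR library than in every B6N library of the same condition.

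Of 16 other coregulators, 2 were higher and 4 lower in naive AKR than in naive B6N (median -0.03), close to the 18.3% higher and 19.5% lower over all genes. They include Ncoa3, the third p160 coactivator (-0.19, SE 0.0431, edgeR adjusted p = 0.00203), Nrip1, a corepressor of bound receptors (-0.21, SE 0.0444, edgeR adjusted p = 0.00116), and the arginine methyltransferase Prmt1 (0.22, SE 0.0479, edgeR adjusted p = 0.00161). After OFL 1 was higher (background 7.5%) and none lower in AKR, the corepressor Tle3 (0.28, SE 0.0647, edgeR adjusted p = 0.00443). Against naive libraries 10 were higher and 4 lower in OFL AKR (median 0.35), and 8 were higher and 5 lower in OFL B6N (median 0.17), where 39.8% of all genes were called higher and 38.8% lower in AKR, and 40.0% higher and 38.4% lower in B6N. These shares differ with gene length, as given below, and the lengths of the 16 were not taken into account. The acetyltransferase Crebbp averaged 234.7 CPM in OFL AKR and 107.9 in naive AKR (1.12, SE 0.0432, edgeR adjusted p = 1.7e-18), and 221.0 CPM in OFL B6N and 109.4 in naive B6N (1.01, SE 0.0431, edgeR adjusted p = 1.3e-17). Prmt1 was lower, with a log2 difference of -1.35 in OFL AKR (SE 0.0646, edgeR adjusted p = 1.9e-16) and -1.32 in OFL B6N (SE 0.066, edgeR adjusted p = 4.3e-16).

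All 8 genes were called between OFL and naive libraries in each strain, 5 higher (Nr3c1, Nr3c2, Ncoa1, Ncoa2 and Ptges3) and 3 lower (Hsd11b1, Crhr1 and Fkbp4), with no overlap of libraries for any of them. This has to be read against the background of these comparisons. Of 20291 genes tested, 78.7% were called in AKR (39.8% higher, 38.8% lower) and 78.4% in B6N (40.0% higher, 38.4% lower), and 76.7% had libraries apart in each. The median log2 difference of the 8 was 0.36 in AKR and 0.27 in B6N, against -0.01 for all genes in AKR and 0.00 in B6N. When only protein-coding genes with no exon overlap on the other strand set the scale, the median of all genes was higher by 0.182 in AKR and 0.185 in B6N, and 9 of the 16 differences moved by over 1.5 times. In AKR, Crhr1 was then at -0.35, Fkbp4 at -0.35, Hsd11b1 at -0.23 and Ncoa1 at 0.49. In B6N, Crhr1 was at -0.28, Hsd11b1 at -0.35, Ncoa1 at 0.42, Ncoa2 at 0.53 and Ptges3 at 0.49.

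**Figure D4:**
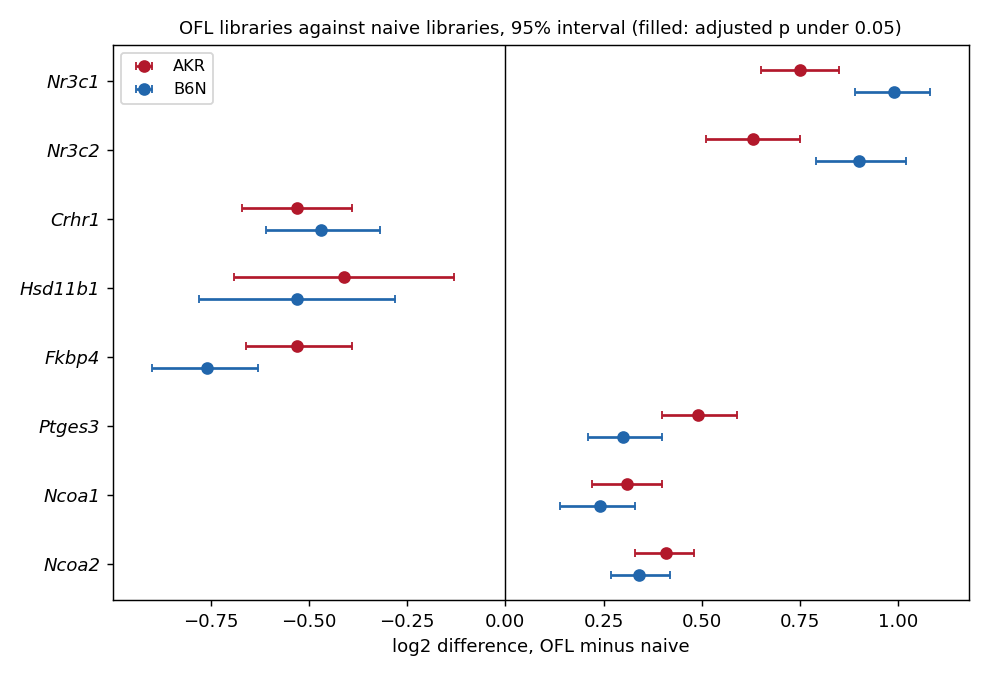
Log2 difference between OFL and naive libraries, OFL minus naive, with 95% intervals, for each of the 8 genes, in AKR and in B6N. Nr3c1 and Nr3c2 are the highest in both strains and lower in AKR than in B6N, and Fkbp4 is the lowest in B6N at -0.76.

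The differences between the library sets moved with the exonic length of genes. In 4 classes of protein-coding genes by length, chosen after the values were seen, the median log2 difference in AKR was -0.48 for genes of 48 to 2832 bases, -0.32 for 2833 to 4476, -0.09 for 4477 to 6851 and 0.33 for 6853 to 123179. In B6N the medians were -0.46, -0.30, -0.09 and 0.29 from the shortest to the longest class. Several of the 8 genes were placed near the middle of their class. Crhr1 was above 46.5% of its class in AKR and 49.3% in B6N, Ncoa1 above 48.9% in AKR and 46.1% in B6N, Ncoa2 above 55.6% in AKR and 52.9% in B6N, and Hsd11b1 above 44.3% in AKR and 35.4% in B6N. Fkbp4 was above 46.6% in AKR and 30.7% in B6N.

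Nr3c1, Nr3c2 and Ptges3 stood toward the upper end of their classes. Nr3c2 was above 87.5% of genes of its length in AKR and 92.7% in B6N, Nr3c1 above 76.4% in AKR and 85.8% in B6N, and Ptges3, the shortest of the 8, above 89.7% in AKR and 86.2% in B6N. Their differences exceeded the class median by 0.72 in AKR and 0.99 in B6N for Nr3c2, by 0.42 in AKR and 0.70 in B6N for Nr3c1, and by 0.97 in AKR and 0.76 in B6N for Ptges3. Fkbp5, a gene of the longest class, was above 21.7% of it in AKR and 2.04% in B6N. The shares of all protein-coding genes called differed by class as well. In AKR 12.7% were higher and 63.4% lower in the shortest class, and 61.2% higher and 21.6% lower in the longest. In B6N these were 13.3% and 61.6% in the shortest, and 59.7% and 24.5% in the longest. The part of gene length, of library make-up and of marker levels in these differences, and in the counts of the gene lists, was not tested.

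**Figure D5:**
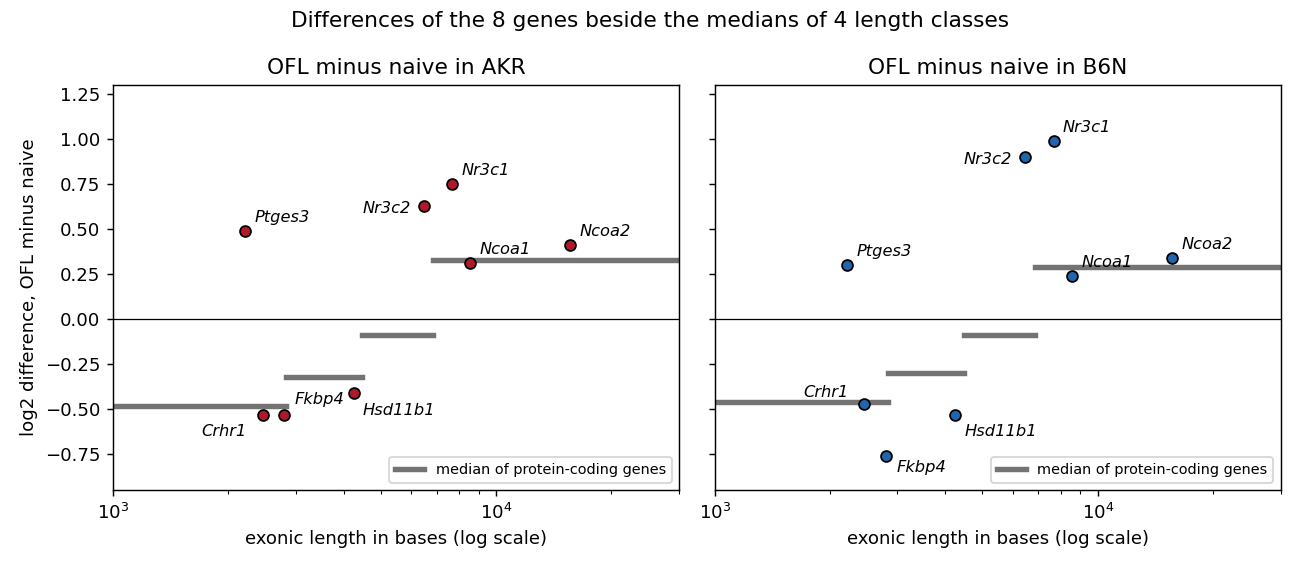
Log2 difference, OFL minus naive, by class of exonic length in AKR and B6N, showing the class medians over all protein-coding genes as lines and the 8 genes as points. The medians climb from -0.48 to 0.33 in AKR and from -0.46 to 0.29 in B6N, and Nr3c1, Nr3c2 and Ptges3 lie above those of their classes.

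Other nuclear receptors for steroids and related orphans gave a mixed picture. Of 6 listed, 5 were tested, and in naive mice 2 were higher (background 18.3%) and none lower (19.5%) in AKR (median 0.15). Esrrb, an orphan receptor, had the larger of these differences, at 0.59 on the log2 scale (SE 0.146, edgeR adjusted p = 0.00416). After OFL Esr1, an estrogen receptor, was lower in AKR, with a log2 difference of -0.61 (SE 0.155, edgeR adjusted p = 0.00913), and the orphan receptor Esrra was higher, at 0.27 (SE 0.0718, edgeR adjusted p = 0.0133). Between OFL and naive libraries 2 were higher and 2 lower in AKR, and 3 were higher and 1 lower in B6N, with 39.8% of all genes called higher and 38.8% lower in AKR, and 40.0% higher and 38.4% lower in B6N. Pgr, the progesterone receptor, was higher by 0.39 in OFL AKR (SE 0.0522, edgeR adjusted p = 1.8e-07) and by 0.39 in OFL B6N (SE 0.0512, edgeR adjusted p = 1.2e-07). None of the 5 was called in the difference between the strains' changes, where Esr1 had the smallest p (-0.38, SE 0.226, edgeR adjusted p = 0.425).

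Of 6 genes of nuclear import and of the dynein motor that carries the receptors along microtubules, 1 was higher and 1 lower in naive AKR, 1 was higher and none lower in AKR after OFL, and 3 were higher and 3 lower in OFL libraries of either strain. Over all genes 37.8% were called in the naive strain comparison, 16.4% in that after OFL, 78.7% between OFL and naive libraries in AKR and 78.4% in B6N. Dync1h1, the long motor subunit, was higher in OFL libraries by 1.15 in AKR (SE 0.0363, edgeR adjusted p = 2.2e-20) and 1.05 in B6N (SE 0.0362, edgeR adjusted p = 1.6e-19), and the importin Ipo13 was lower, with a log2 difference of -1.10 in AKR (SE 0.0578, edgeR adjusted p = 1.3e-15) and -1.18 in B6N (SE 0.0584, edgeR adjusted p = 3.8e-16). Of 17 genes known to be induced by glucocorticoids, which include Fkbp5, none was higher and 13 were lower in naive AKR (median -0.52; background 18.3% higher and 19.5% lower), while after OFL 3 were higher and 3 lower in AKR (median -0.10; background 7.5% and 8.86%). Against naive libraries 7 were higher and 7 lower in OFL AKR, close to the background of 39.8% higher and 38.8% lower. In OFL B6N 4 were higher and 12 lower (background 40.0% and 38.4%). In the difference between the strains' changes 7 were higher in AKR (background 3.61%) and none lower (1.54%). Like the other lists, this one was chosen with earlier results of these data known, so its counts are only a description.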

How the data were processed

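Bulk RNA-seq libraries of mouse anterior cingulate cortex (n = 14) were grouped by the strain and condition of their labels. The labels' protocols name Trizol for the extraction of total RNA and the TruSeq RNA Sample Prep Kit v2 for the libraries. The tools listed in the submitters' processing notes are TopHat2 2.1.1, cutadapt 2.7, edgeR, HTSeq and CASAVA, and the build is GRCm38. The annotation release and the strand setting of the counting are not given in the sources used here. The authors deposited whole-number counts per Ensembl gene in 2 tables, for naive and for OFL libraries. The tables list 53465 genes, of which 53360 were named through GENCODE M21, and no row without a gene entered. Per-library tables of CPM were not used.

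From the counts, edgeR 4.0.16 (R 4.3.3, limma 3.58.1) gave TMM factors, a filter on low counts by group and quasi-likelihood F-tests, two-sided, with Benjamini-Hochberg adjustment over all genes tested. The threshold for a call was an adjusted p under 0.05. Strains were compared within naive and within OFL libraries. OFL was compared with naive within each strain, and those 2 differences with each other, in 1 model of all 14 libraries. SE is the log2 difference divided by the square root of F. CPM values are scaled by the TMM factors of all 14 libraries. The total counts behind them, given in the report, limit precision by counting error, and replicates varied with a common biological coefficient of 0.0446 in naive and 0.0456 in OFL libraries. The tests were also run on simulated counts.

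All 8 genes and Fkbp5 are described. From each gene list up to 4 called genes with the smallest p in a comparison could be named, or the one with the smallest p where none was called, and 3 pattern neighbours of each receptor. Ucn3, Hsd11b2, Abcb1a and Hsp90aa1 are given outside this rule, for their levels. The neighbours were sought among protein-coding genes averaging 5 CPM or more, with a prior count of 2. The 8 genes and the lists were chosen with earlier results of these data known. A few genes of the lists are not reported here. Promoters are from RefSeq (GRCm38.p6). Alternatives were DESeq2 1.42.0, other scalings and filters, a replicate block and leaving out each library.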

Additional observations from a re-analysis of the deposited data

Results flagged for a closer look

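Tests of the difference between the strains' changes, that is OFL minus naive in AKR less OFL minus naive in B6N on the log2 scale, passed the threshold for 9 of the genes named (edgeR, adjusted p under 0.05). The receptors Nr3c1 (-0.24) and Nr3c2 (-0.27) were lower in AKR by this measure, and the other 7 were higher. Those were the receptor chaperones Fkbp5 (0.95), Hsp90ab1 (0.24) and Stip1 (0.27), the corepressor Tle3 (0.42), and the glucocorticoid-induced genes Tsc22d3 (1.11), Plin4 (2.26) and Sult1a1 (1.0), which with Fkbp5 are 4 of the 7 called among 17 glucocorticoid-induced genes, all 7 higher in AKR. Genes of the lists were named for a small p in a comparison, this one included, so the 9 are not a share of any set. Over all 20291 genes tested for the difference between the strains' changes, 3.61% were called higher and 1.54% lower. No sample of a group of 4 stood apart in the level of any of the 8 genes by Dixon's criterion. The criterion was not applied to groups of 3. OFL and naive libraries are separate sets, so that a difference in how the sets were made cannot be told apart from conditioning in the changes themselves.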

How the results depend on the processing

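Of 688 tested values of single genes recomputed under the alternatives, 631 kept their direction and side of the threshold. Another 46 lost the call, 8 gained it and 3 changed sign, none of the 3 called. Some of the 688 could hardly move, since a library of the other strain has little weight in an OFL minus naive difference. For Nr3c1 in AKR it was 0.7452 to 0.7507 when 1 naive B6N library was left out. Of 42 ratios recomputed, which have no test, 1 changed sign: Ncoa1 to Ncoa2 in OFL B6N was 0.016 without library 2 (-0.009 with all). After OFL the strain difference of Fkbp4 was -0.01133 without AKR library 2, and that of Ptges3 was 0.001739 without AKR library 3 and 0.01268 without B6N library 3 (-0.07423 to 0.01268 over all omissions, and -0.01133 to 0.1584 for Fkbp4). Genes called between the strains after OFL numbered 1934 to 3514 over the omissions of 1 library (2943 with all), the lowest without B6N library 2. In the other comparisons they numbered 5680 to 6747 (naive strains), 15551 to 16297 (OFL in AKR), 15511 to 16281 (OFL in B6N) and 732 to 1273 (difference of changes). With no count filter the strain difference of Nr3c1 after OFL (adjusted p = 0.0296), that of Fkbp4 in naive mice (0.0149) and the difference of changes of Fkbp4 (0.0332) passed in edgeR, the naive strain difference of Nr3c1 (0.0645), the difference of changes of Nr3c2 (0.0501) and the OFL strain difference of Hsd11b1 (0.0572) did not, and DESeq2 gave 0.0507 for the difference of changes of Nr3c2. Upper-quartile factors gave 0.0512 for the OFL strain difference of Hsd11b1. With all 14 libraries in 1 model it was 0.16, and 0.0801 for Nr3c1 in naive mice. The causes were not tested.

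Scaling by protein-coding genes without exon overlap on the other strand shifted the median OFL minus naive difference of all genes by 0.182 in AKR and 0.185 in B6N. The calls were then 9570 higher and 6141 lower in AKR, against 8085 and 7883, and 9673 higher and 6062 lower in B6N, against 8118 and 7798. Of the 8 genes, all kept their direction, and Hsd11b1 in AKR lost its call; the sizes that moved by over 1.5 times stand beside these comparisons.

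Replicate numbers did not pair the libraries (correlations of -0.03 to 0.044 between same-numbered libraries, and 2 of 7 correlating best with their own number). With the replicate block 6229 genes were called between naive strains and 3021 between OFL strains, 15766 in OFL AKR, 15722 in OFL B6N and 1013 in the difference of changes. Nr3c1 (adjusted p = 0.0793) and Nr3c2 (0.055) were not called between naive strains under the block.

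Depth limits Hsd11b1 most, with 111 to 156 reads in OFL libraries.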
